A study of Mus musculus with 17 samples.

Results

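The genes described here are 10 immediate early genes, those that cells transcribe first after a growth signal or stress: the AP-1 subunits Fos, Fosb, Fosl2, Jun, Junb, Jund and Atf3, and with them Egr1, Ier2 and Ier3. They were chosen by name, 10 of 12393 genes measured, and each was read from 1 probe set, the one with the highest mean over the 17 arrays. Of the 10, only Jun had a further probe set. RNA came from 17 mammary tumours of FVB mice in which MMTV, a promoter active in mammary epithelium, drives Myc T58A, a mutant of the Myc transcription factor; the series calls all of them low expressing, so the mutant Myc is shared by every group and there is no tumour without it. By histology label 9 tumours were Squamous, 6 EMT (epithelial to mesenchymal transition), 1 Papillary and 1 Microacinar, and the labels give neither ages nor treatments. All values are log2 values per probe set as deposited, so a difference of 1 is a doubling on the array's scale, and values of different genes are not set against each other because their probe sets differ. The number after a histology serves only as a name for the tumour.

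AP-1 is a dimer of a Fos, Jun or ATF protein with a partner, held together by a leucine zipper, and it binds the motif TGACTCA, or the longer TGACGTCA for dimers with ATF proteins. Ras and ERK signalling switches its genes on within minutes by way of serum response factor and its partners at CArG boxes, and of CREB and ATF proteins at TGACG sites; the transcripts are short-lived, and JunB, Egr1 and the phosphatases and RNA-binding proteins made in the same burst damp the response. In mammary tissue and skin, AP-1 takes part in growth, wound repair and keratinocyte differentiation.

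The supplied RefSeq promoter table (GRCm38.p6) held 8 of the 10 genes, without Egr1 and Ier2. In the 250 bases before the annotated start, both strands were searched. The core TGACG was found in Fos, Fosb, Junb and Atf3, 4 of the 8, against 17.8% of 32851 promoters. TGACATCA, a variant of the AP-1 and CREB sites, was found in Jun alone of the 8 and in 2.93% of all promoters. GCGNGGGCG, a motif of Egr proteins, was found in Fosb and Fosl2 and in 4.7% of all. TATAAA was found in Fos and in 12.4% of all. GGGCGG, a GC box that overlaps GCGNGGGCG, was found in 6 of the 8 and 32.7% of all, and CCAAT in 3 of the 8 and 33.8% of all. TGACTCA, TGACGTCA (which contains TGACG) and the CArG box were found in 0 of the 8, against 4.46%, 1.55% and 1.47% of all promoters. A match describes the letters only. Sites more than 250 bases before the start, and those of Egr1 and Ier2, were not searched, so a count of 0 does not show their absence. The last 150 bases before the start are shown for Fos, Jun and Junb, which vary together with other members below, and for Fosb, whose signal was near the bottom of the arrays. They run 5′ to 3′ along the gene, with Fos at chr12:85473740-85473889 (plus strand), Fosb at chr7:19310046-19310195 (minus), Jun at chr4:95052223-95052372 (minus) and Junb at chr8:84978749-84978898 (minus). Capitals mark the motifs TGACG, TGACATCA, GCGNGGGCG and TATAAA.
Fos: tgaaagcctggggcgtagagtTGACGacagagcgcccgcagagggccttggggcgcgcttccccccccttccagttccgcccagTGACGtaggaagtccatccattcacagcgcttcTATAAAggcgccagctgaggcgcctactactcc
Fosb: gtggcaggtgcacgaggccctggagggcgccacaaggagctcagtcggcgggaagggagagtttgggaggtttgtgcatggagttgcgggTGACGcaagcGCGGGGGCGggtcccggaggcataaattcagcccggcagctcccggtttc
Jun: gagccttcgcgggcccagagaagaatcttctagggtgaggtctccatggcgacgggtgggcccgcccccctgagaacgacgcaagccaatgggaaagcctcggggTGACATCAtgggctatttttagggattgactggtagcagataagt
Junb: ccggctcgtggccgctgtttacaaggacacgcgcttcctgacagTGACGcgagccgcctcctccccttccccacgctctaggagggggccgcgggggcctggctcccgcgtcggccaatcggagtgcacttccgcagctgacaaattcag

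The Fos stretch holds TGACG at 129 to 125 and again at 66 to 62 bases before the start, with TATAAA at 33 to 28. The Fosb stretch holds TGACG at 60 to 56 bases and GCGNGGGCG at 50 to 42 bases before the start. In Jun, TGACATCA lies 45 to 38 bases before the start, and in Junb, TGACG lies 106 to 102 bases before it.

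Features of the arrays bear on several members. Array titles had 2 formats, numbered on 14 arrays and with TM on 3 (EMT 5, EMT 6 and Squamous 9), and array medians lay between 7.23 and 7.40. Any pair of TM arrays shared the exact value of 4306 to 4850 of 22690 probe sets, while any other pair of arrays shared at most 18. Of the 10 genes, Fosb was the one caught in this, with an identical 5.78 in EMT 5 and EMT 6. In the model described below, 40.4% of all genes differed between the title formats (limma adjusted p below 0.05), and 3 of the 10 did: Fosb was higher on TM arrays by 1.00 (SE 0.21), Jun higher by 0.72 (SE 0.16) and Fosl2 lower, at −0.45 (SE 0.17), with adjusted p of 0.00158, 0.00293 and 0.0472. What the title formats stand for is not given in the labels. Cdh1, the cadherin of epithelial junctions, was 11.13 or higher in every tumour but EMT 4, EMT 5 and EMT 6 (7.19, 8.10 and 7.04). EMT 5 and EMT 6 are also TM arrays, and Squamous 9 is the only other one. Differences by title format and by low Cdh1 can therefore not be fully told apart. Myc, itself an immediate early gene in normal cells, ranged from 9.18 in EMT 4 to 12.40 in EMT 1. These values may include the Myc T58A driven by MMTV, which was not told apart from the mouse's own Myc. In whole tumours a lower level in each cell and fewer cells of the kind that makes a transcript cannot be told apart.

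EMT was compared with Squamous, the histologies that have replicates, to ask whether the AP-1 genes differ with the tumour's histology. None of the 10 genes passed: with limma adjusted p over all genes, 0 of 10 were called, against 0 of all 12393 (0%), and at an unadjusted p below 0.05 there was 1 of 10, Jun, against 14.3% of all genes. Fold differences lay between −0.64 and 0.34 on the log2 scale, with 6 of 10 above 0 and 51.8% of all genes above 0, and the median over the 10 was 0.07 against 0.0064 over all genes. The median of the 10 turned to −0.0072, −0.016 and −0.017 when EMT 2, EMT 3 or Squamous 8 was left out. In none of the 10 were the groups apart: 0 of 10 had every EMT tumour above every Squamous tumour and 0 of 10 the opposite, against 0.153% and 0.0968% of all genes.

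**Figure D1:**
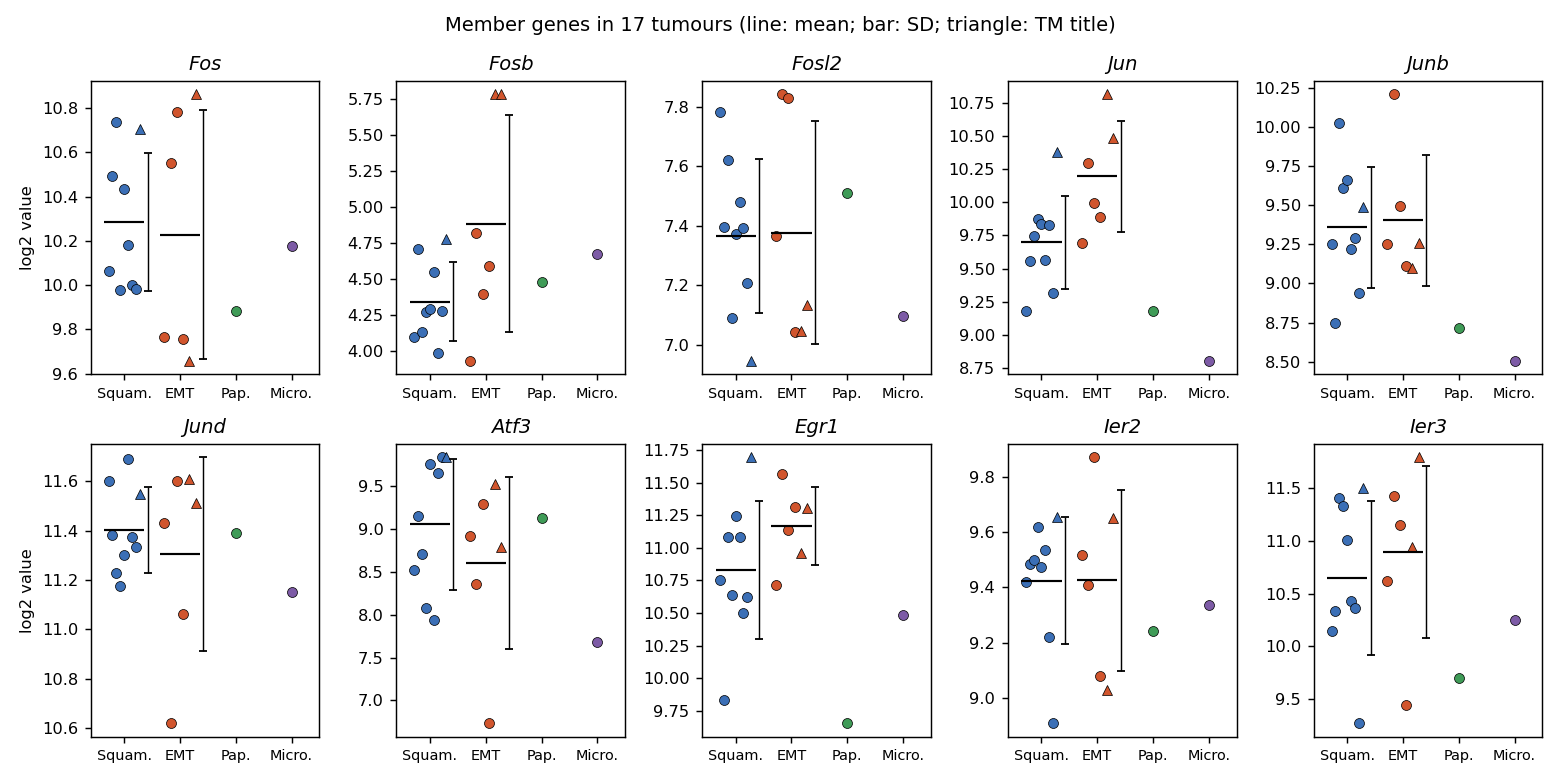
Log2 values (vertical axis, a separate scale per gene, not starting at 0) of the 10 genes in the 9 Squamous, 6 EMT, 1 Papillary and 1 Microacinar tumours; each point is a tumour, triangles are arrays with TM titles, lines are group means and bars 1 SD. Squamous and EMT tumours overlap in every panel, and the Papillary and Microacinar tumours are the lowest points for Jun and Junb.

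**Figure D2:**
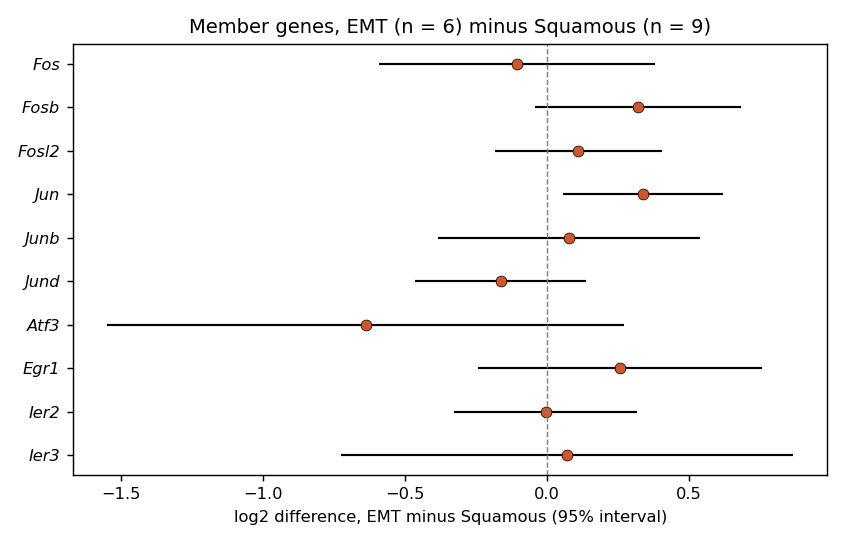
Difference EMT (n = 6) minus Squamous (n = 9) in log2 units (horizontal axis) for each of the 10 genes (vertical axis); points are limma estimates and lines 95% intervals. Only the interval of Jun, 0.06 to 0.62, lies wholly above 0, before adjustment over all genes.

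Among the Fos proteins, which bind AP-1 sites as dimers with Jun proteins, Fos itself had the same centre in both histologies and a wider spread in EMT. Fos ran from 9.98 through a median of 10.18 to 10.74 in Squamous tumours and from 9.66 through 10.16 to 10.86 in EMT tumours. EMT 6 and EMT 3 lay above every Squamous tumour, and EMT 1, EMT 4 and EMT 5 below every one. The Fos difference was −0.11 (SE 0.23, 95% interval −0.59 to 0.38, limma adjusted p = 0.863), and it was 0.03 with array weights and 0.0073 without EMT 5. Fosl2, which encodes Fra-2, was 6.95 to 7.78 in Squamous tumours with a median of 7.39, and 7.04 to 7.84 in EMT tumours with a median of 7.25. EMT 2 and EMT 3 had the highest Fosl2 values of all 17, the other 4 EMT tumours fell among the Squamous ones, and the difference was 0.11 (SE 0.14, 95% interval −0.18 to 0.40, adjusted p = 0.743 with limma). It was 0.03 without either EMT 2 or EMT 3, and 0.23 without EMT 4.

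Fosb was near the array's lower limit. Its value lay under the lower quartile of the array in 15 of 17 tumours, from 3.99 through 4.28 to 4.77 in Squamous tumours, while EMT tumours ran from 3.93 through 4.71 to 5.78. EMT 2, EMT 5 and EMT 6 lay above every Squamous tumour and EMT 1 below every one; the top value was the identical 5.78 of EMT 5 and EMT 6, both TM arrays. The difference was 0.32 (SE 0.17, 95% interval −0.04 to 0.68, limma adjusted p = 0.400). It was 0.15 among numbered arrays alone, where Squamous 9, EMT 5 and EMT 6 drop out, and 0.54 without the title format term.

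Of the Jun proteins, which pair with each other as well as with Fos proteins, Jun had the smallest p of the 10 genes. Jun was 9.18 to 10.38 in Squamous tumours with a median of 9.75, and 9.69 to 10.81 in EMT tumours with a median of 10.14. EMT 5 and EMT 6 lay above the highest Squamous tumour, Squamous 9, and these 3 are the TM arrays; 4 Squamous tumours lay below the lowest EMT tumour. The difference was 0.34 (SE 0.13, 95% interval 0.06 to 0.62), with an unadjusted p of 0.0223 and an adjusted p of 0.280 from limma, so it did not pass over all genes. The second Jun probe set gave 0.33 (SE 0.10, adjusted p = 0.197 over all probe sets with limma), and the first gave 0.35 among numbered arrays (adjusted p = 0.511). The beta-actin 3′ minus 5′ difference, a sign of less intact RNA where high, had a median of 0.58 in EMT and 0.76 in Squamous tumours. Over the 17 tumours Jun had an r of −0.53 with it and of −0.61 with that of Gapdh (−0.64 and −0.30 among numbered arrays), and neither passed (adjusted permutation p = 0.192 and 0.115). The part of RNA integrity in the Jun difference was not tested.

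Junb, whose product is the weaker activator and often opposes c-Jun, ran from 8.75 through 9.29 to 10.02 in Squamous tumours and from 9.10 through 9.26 to 10.21 in EMT tumours. EMT 2 alone lay above the Squamous range, and the difference was 0.08 (SE 0.21, 95% interval −0.38 to 0.54, limma adjusted p = 0.898). Without EMT 2 it was −0.12. Jund, the Jun gene with the steadiest expression in many resting cells, was 11.17 to 11.69 in Squamous tumours with a median of 11.37, and 10.62 to 11.61 in EMT tumours with a median of 11.47. EMT 2 and EMT 4 lay below every Squamous tumour, and EMT 2 had the lowest Jund and the highest Junb of all 17 tumours. The Jund difference was −0.16 (SE 0.14, 95% interval −0.46 to 0.14, limma adjusted p = 0.612), and −0.013 without EMT 2.

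Atf3, a stress-induced partner of Jun that represses as a homodimer, varied most among the 10 genes, with an SD of 0.86 over the 17 tumours. Atf3 ran from 7.94 through 9.15 to 9.84 in Squamous tumours and from 6.73 through 8.85 to 9.53 in EMT tumours. EMT 4 stood lowest of all tumours and 4 Squamous tumours lay above every EMT tumour. The difference was −0.64 (SE 0.42, 95% interval −1.55 to 0.27, limma adjusted p = 0.506), and −0.23 without EMT 4.

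Egr1, a zinc finger factor induced by ERK signalling, was 9.83 to 11.70 in Squamous tumours with a median of 10.76, and 10.71 to 11.57 in EMT tumours with a median of 11.22. All 6 EMT tumours lay within the Squamous range, 4 Squamous tumours lay below them all, and 5 of 6 EMT tumours were above the Squamous median. The Egr1 difference was 0.26 (SE 0.23, 95% interval −0.24 to 0.76, limma adjusted p = 0.637). It was 0.12 without EMT 2 and 0.46 among numbered arrays alone. Leaving out only Squamous 9 gave the same 0.46, because the title format term then takes up EMT 5 and EMT 6, the only TM arrays left.

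Ier2, which encodes a small nuclear protein, had the smallest SD of the 10 genes, 0.25. It ran from 8.91 through 9.48 to 9.66 in Squamous and from 9.03 through 9.46 to 9.87 in EMT tumours. Its difference was −0.0042 (SE 0.15, 95% interval −0.33 to 0.32, limma adjusted p = 0.991). The sign changed in 12 of 26 alternative fits, not all of them separate checks, with values between −0.12 and 0.15. Ier3, a stress gene that modulates cell survival, spread over 2.53 log2 units. It ran from 9.27 through 10.43 to 11.50 in Squamous and from 9.45 through 11.05 to 11.80 in EMT tumours. EMT 6 was the highest and Squamous 8 the lowest of all 17, and the difference was 0.07 (SE 0.37, 95% interval −0.72 to 0.87, limma adjusted p = 0.946). Without EMT 4 it was 0.37 and without EMT 2 it was −0.13.

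The Papillary and Microacinar tumours have no replicates, so their values are given as they stand, with no test. The lowest Jun values of all 17 tumours were 8.80 in the Microacinar and 9.18 in the Papillary tumour, next to 9.18 in Squamous 1. The lowest Junb values were 8.51 and 8.72 in the same tumours, next to 8.75 in Squamous 2. Egr1 was lowest in the Papillary tumour at 9.65, just under Squamous 2 at 9.83, while the Microacinar tumour had 10.49. Atf3 was 7.68 in the Microacinar tumour, below every Squamous tumour, and 9.12 in the Papillary tumour.

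The Papillary tumour lay below the lowest Squamous tumour in 4 of 10 genes (Fos, Jun, Junb and Egr1), against 8.26% of all genes, and above the highest in 0 of 10, against 8.26%. It lay below every EMT and Squamous tumour in 3 of 10 (Jun, Junb and Egr1), against 5.04% of all genes, and above every one in 0 of 10, against 4.36%. The Microacinar tumour lay below in 4 of 10 (Jun, Junb, Jund and Atf3), against 10% of all genes, and above in 0 of 10, against 11.1%. It lay below every EMT and Squamous tumour in 2 of 10 (Jun and Junb), against 5.33%, and above every one in 0 of 10, against 6.67%. After quantile normalization the Papillary count below the Squamous range was 3, and after subtraction of array medians the Microacinar count was 3. The skeletal muscle marker mean was 10.41 in the Papillary and 10.81 in the Microacinar tumour against 5.15 to 9.71 in Squamous tumours, and the Microacinar tumour also had the highest adipocyte marker mean, 9.50. The part of these cells in the lower values was not tested.

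Spread over all 17 tumours was set beside that of all genes. The SD was above the median of all genes, 0.32, in 7 of the 10, and the median SD of the 10 was 0.48. Atf3 (0.86) and Ier3 (0.75) stood at the percentiles 87.5 and 84.1 of all genes by SD. Egr1, Fosb, Jun, Junb and Fos had SDs of 0.55, 0.53, 0.52, 0.44 and 0.40, and Fosl2, Jund and Ier2 lay below the median of all genes with 0.29, 0.26 and 0.25.

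**Figure D3:**
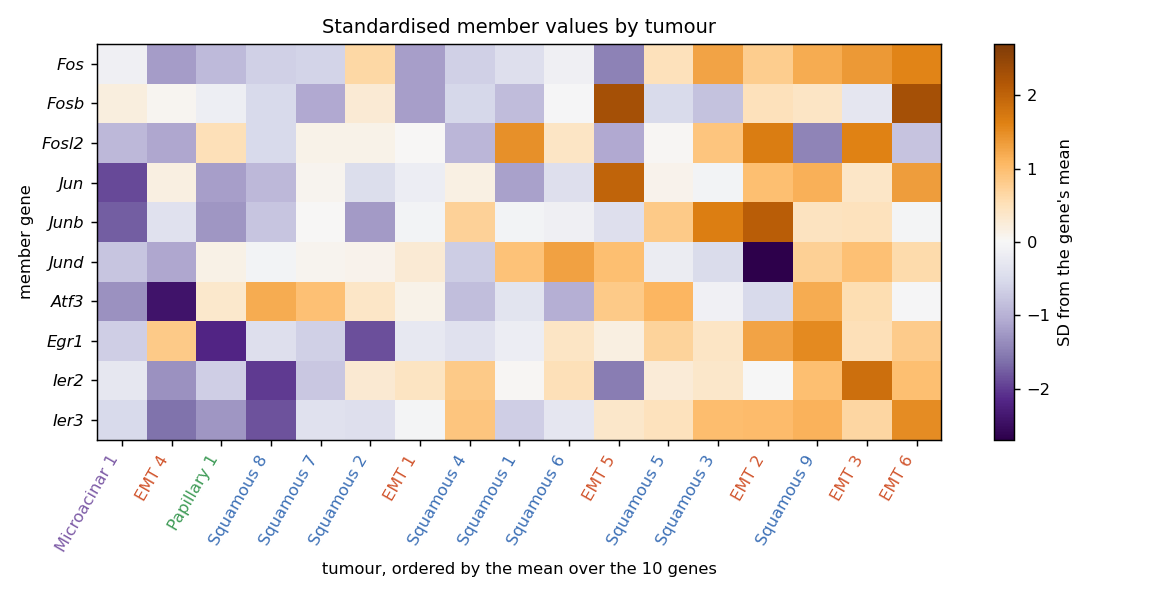
Each cell is a gene's value in a tumour, in SDs from that gene's mean over the 17 tumours (colour scale), with genes in rows and tumours in columns ordered by the mean over the 10 genes. Microacinar 1 and EMT 4 stand at the low end (both with a mean of −0.81) and EMT 6 and EMT 3 at the high end (0.82 and 0.81), so both ends hold EMT tumours.

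Expressed in SDs from each gene's own mean and averaged over the 10 genes, tumours ran from −0.81 in the Microacinar tumour and EMT 4, −0.66 in the Papillary tumour and −0.66 in Squamous 8 to 0.73 in Squamous 9, 0.81 in EMT 3 and 0.82 in EMT 6. EMT 3 and Squamous 9 each had 9 of the 10 genes above the gene's mean, and the Microacinar tumour and Squamous 8 each had 1. In EMT 4 Atf3, Ier3 and Ier2 were low (6.73, 9.45 and 9.08) while Egr1 was 11.31, above the median of all tumours at 10.96. In Squamous 8 Ier3 and Ier2 were the lowest of all (9.27 and 8.91) while Atf3 was 9.83, close to the top value of 9.84.

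Whether the 10 genes vary together was asked over their 45 pairs, with Pearson's r over the 17 tumours and a permutation test of 100000 resamples, two-sided, adjusted over the 45 pairs. The median r was 0.21 and 34 of 45 pairs (75.6%) were above 0, against a median of 0.006 and 50.5% over all 76787028 pairs of genes. After quantile normalization the median r of the 45 pairs was 0.13, with 30 of 45 above 0. In 8 pairs the adjusted p was below 0.05, all with positive r from 0.61 to 0.70. An r at least this high was found in 17.8% of the 45 pairs and in 8.24% of all pairs of genes. Ier3 was in 4 of the 8 pairs, Jun in 3, Fos, Junb, Egr1 and Ier2 in 2 each, and Fosb in 1; Fosl2, Jund and Atf3 were in 0. These calls depended on single tumours: 0 pairs passed when EMT 3, Papillary 1, Squamous 5, Squamous 8 or Squamous 9 was left out, 2 without EMT 2, and 4 without Squamous 1, Squamous 3 or EMT 6. After quantile normalization, after subtraction of array medians, within the 9 Squamous tumours, or on deviations from the EMT and Squamous means, 0 passed, although in those settings the 8 pairs kept r values of 0.38 to 0.84. The tumours may not be independent either, since Squamous 7 and Squamous 8 share a number in their titles, as do Squamous 5 and the Microacinar tumour. RNA integrity also varied between tumours, as described below, and its part in the pairs was not tested.

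Ier2 and Ier3 had the highest r of the 45 pairs, 0.70 (adjusted permutation p = 0.0372), with a Spearman's rho of 0.69 (adjusted permutation p = 0.0334). Without the 2 tumours whose Ier2 lay farthest from its median r was 0.75, and among the 14 numbered arrays it was 0.78 (adjusted permutation p = 0.0148). Junb and Ier3 had an r of 0.67 (adjusted permutation p = 0.0372) and a rho of 0.75 (adjusted permutation p = 0.0207), with 0.61 without the 2 farthest tumours and 0.78 among numbered arrays (adjusted permutation p = 0.0169). Junb and Egr1 had an r of 0.67 (adjusted permutation p = 0.0372), a rho of 0.61 (adjusted permutation p = 0.0694), 0.66 without the 2 farthest tumours and 0.73 among numbered arrays (adjusted permutation p = 0.0384). These 3 pairs passed over all tumours and among numbered arrays.

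For Fos with Ier2, Fos with Ier3, Jun with Ier3 and Jun with Egr1, r over all tumours was 0.69, 0.66, 0.66 and 0.62, and among numbered arrays it was 0.57, 0.66, 0.58 and 0.61 without passing there (adjusted permutation p = 0.161, 0.103, 0.161 and 0.156). Fosb with Jun had an r of 0.61 over all tumours and 0.0090 among numbered arrays; without the 2 tumours whose Fosb was farthest from its median, r was 0.17, so this relation rests on the TM arrays with the shared 5.78. Jun and Junb had an r of 0.51 over all tumours (adjusted permutation p = 0.170) and 0.79 among numbered arrays (adjusted permutation p = 0.0148). Among the 14 numbered arrays 4 pairs passed in all, 6 pairs had an r at least as high as the lowest called above, 13.3% of the 45, and 4.88% of all pairs of genes did.

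**Figure D4:**
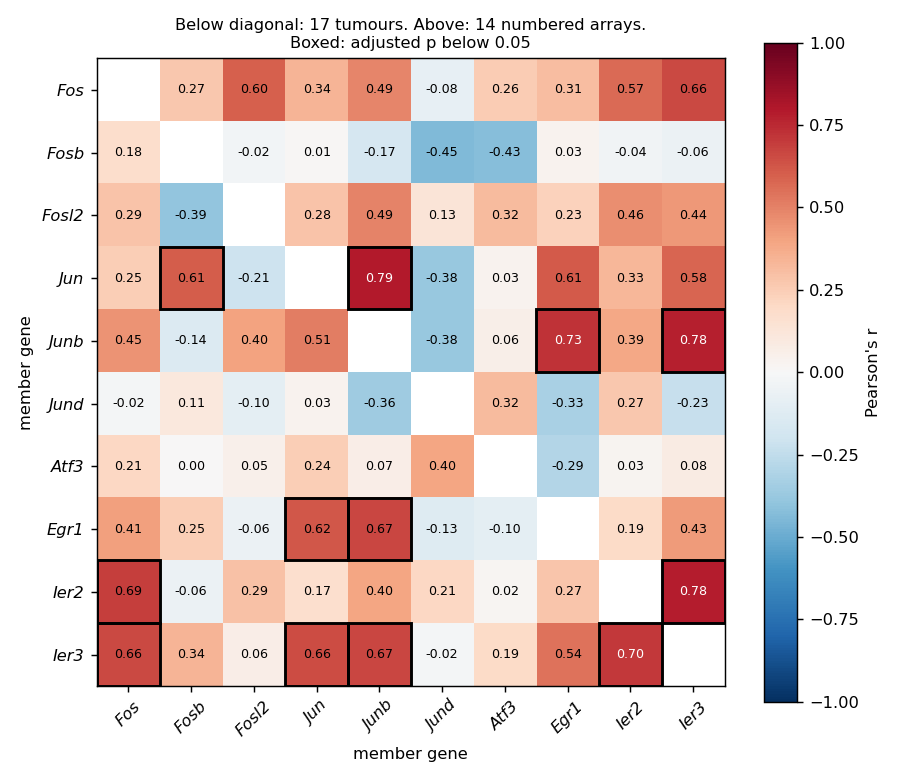
Pearson's r (colour and number) for each pair of the 10 genes on both axes, over 17 tumours below the diagonal and over the 14 numbered arrays above it; boxes mark pairs with an adjusted permutation p below 0.05. The 8 boxes below the diagonal hold r of 0.61 to 0.70, and Jun with Fosb goes from 0.61 below to 0.01 above.

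The genes most like the average of the 10, by Pearson's r over the 17 tumours and given as a description, were Bcl10 at 0.89, Arg1 at 0.88, Csnk1e at 0.87, Rlf at 0.86, Exoc1 at 0.85 and Mmadhc, Stam2 and Mutyh at 0.84. Bcl10, an adaptor of NF-kB signalling, ranged only from 9.36 to 10.06, and Arg1, an arginase of the urea cycle that macrophages and keratinocytes also make, from 7.36 to 13.80. Among numbered arrays Bcl10 was again the most alike (0.93), while Mmadhc ranked 97. Of the genes in the lists below, Maff, a small Maf protein that dimerises with Fos proteins, came highest at rank 9 (0.84), followed by Klf4, a keratinocyte transcription factor, at rank 10 (0.84).

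The average of each marker list and 2 measures of RNA integrity, the 3′ minus 5′ differences of control probe sets for Gapdh and for beta-actin, were set against each of the 10 genes, a family of 120 relations chosen after the data were seen. Less intact RNA gives a higher difference. Of the 120 relations 2 had an adjusted permutation p below 0.05 by r, 0 by rho and 0 among numbered arrays. Ier3 was lower where the Gapdh difference was higher, with an r of −0.78 (adjusted permutation p = 0.0312) and a rho of −0.70 (adjusted permutation p = 0.0958); r was −0.62 without the 2 farthest tumours and −0.72 among numbered arrays (adjusted permutation p = 0.120). The Gapdh difference was 0.39 in EMT 4 and 0.38 in Squamous 8, which also had the lowest Ier3 values of all 17 tumours (9.45 and 9.27), and its median was 0.16 in Squamous and 0.03 in EMT tumours. The other genes of the 8 called pairs also had negative r with the Gapdh difference. These were −0.61 for Jun, −0.51 for Fosb, −0.49 for Ier2, −0.48 for Fos, −0.32 for Junb and −0.32 for Egr1. None of them passed (adjusted permutation p of 0.115 to 0.504). Atf3, Jund and Fosl2, outside those pairs, had −0.42, −0.15 and −0.05. Among numbered arrays the same genes had −0.31, 0.13 and −0.62. In the pairs r there was −0.30 (Jun), 0.0085 (Fosb), −0.66 (Ier2), −0.55 (Fos), −0.43 (Junb) and −0.08 (Egr1), and the sets overlapped. With the beta-actin difference over all tumours r was −0.53 (Jun) to −0.09 (Ier2) in the genes of the pairs. Ier3 had −0.41 (adjusted permutation p = 0.370). It was −0.16 (Fosl2), 0.02 (Atf3) and 0.23 (Jund) outside them, and none passed. The part of RNA integrity in the values of Ier3 and in the pairs was not tested further.

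The other relation was that of Atf3 with the skeletal muscle genes, but the muscle means fell into separate sets, so no pooled r is given. In the 9 tumours with muscle means of 5.02 to 5.98 Atf3 ran from 8.07 to 9.84 with an r of −0.03 (exact permutation p = 0.944), and in the 8 tumours with muscle means of 8.09 to 11.50 Atf3 ran from 6.73 to 9.12 with an r of −0.59 (exact permutation p = 0.124) and a rho of −0.36 (exact permutation p = 0.389). EMT 4 had both the highest muscle mean and the lowest Atf3, and without the 2 tumours of the muscle-rich set farthest from its median r was −0.32. Short of the threshold, each with an adjusted permutation p of 0.0895, were Jun and Egr1 with fibroblast genes (r of 0.67 and 0.64), Fosl2 with macrophage genes (r of −0.66), and Fosb and Jun with epithelial genes (r of −0.78 and −0.65). Among numbered arrays these r were 0.50, 0.60, −0.58, −0.19 and −0.23. The epithelial means also fell into separate sets, 6.43 to 8.17 in EMT 4, EMT 5 and EMT 6 and 10.81 or higher in every other tumour. Without the 2 tumours whose epithelial mean lay farthest from its median, r was −0.23 for Fosb and −0.26 for Jun. The pooled r of Fosb also includes the shared 5.78 of EMT 5 and EMT 6. The T and B cell marker mean was 5.24 to 5.44 in the 6 EMT and 5.45 to 8.16 in the 9 Squamous tumours. The groups did not overlap, but EMT 5 and Squamous 2 nearly met at 5.44 and 5.45. The macrophage marker mean was 12.39 in EMT 5 and 11.96 in EMT 6 against a Squamous maximum of 11.27, and the keratinocyte marker mean was 5.92, 6.61 and 5.64 in EMT 4, EMT 5 and EMT 6 against a Squamous minimum of 7.96. The part of these cells in the values of the 10 genes was not tested.

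The rest of the pathway was described from 6 lists; over all of them 0 genes passed the limma test over all genes. Of 12 other AP-1 partners, 2 had an unadjusted p below 0.05, both higher in EMT, 6 of 12 had a difference above 0, and the median was 0.02. Over all genes 8.08% were higher at that p and 51.8% had a difference above 0. Fosl1, which encodes Fra-1, ran from 6.24 to 7.98 in Squamous tumours and from 6.26 to 10.11 in EMT tumours, with 4 of 6 EMT values exceeding every Squamous value and a difference of 1.61 (SE 0.55, adjusted p = 0.238 with limma). With array weights the Fosl1 difference was 0.93. Jdp2, a repressor that dimerises with Jun, had a difference of 0.98 (SE 0.43), and Ddit3, the stress factor CHOP, one of 0.58 (SE 0.32), with adjusted p from limma of 0.333 and 0.427. Each also had 4 of 6 EMT tumours above the Squamous range, and for Ddit3 1 EMT tumour lay below that range. The Jdp2 difference was 0.49 without EMT 4, and the Ddit3 difference 0.25 among numbered arrays alone.

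Of 11 other immediate early transcription factors, 0 had an unadjusted p below 0.05, against 14.3% of all genes, and the median difference was 0.18. That median was 0.049 among numbered arrays alone, and between 0.053 and 0.11 without each of EMT 1, EMT 2, EMT 3, EMT 4, Squamous 1, Squamous 2, Squamous 7 and Squamous 8. Egr2, a relative of Egr1, differed by 0.45 (SE 0.38), Klf6, a zinc finger factor of injury responses, by 0.37 (SE 0.19) and Myc by −0.51 (SE 0.53), and the limma adjusted p were 0.614, 0.398 and 0.685. The Egr2 difference was 0.29 without EMT 1, 0.27 without EMT 5 and 0.67 without EMT 6, and that of Klf6 was 0.24 without EMT 2. The Myc difference was −0.13 without EMT 4, −0.31 without EMT 2, −0.95 without EMT 1 and −0.061 with array weights. Myc values may also include the Myc T58A driven by MMTV. Of 27 feedback and growth genes of the early response, 1 was higher and 1 lower at an unadjusted p below 0.05, where 8.08% and 6.27% of all genes were, with a median of −0.05. Dusp6, a phosphatase that turns ERK off, had a difference of 1.23 (SE 0.37, adjusted p = 0.211 with limma), and 3 of 6 EMT values exceeded every Squamous value. Nfkbiz, an NF-kB regulator, stood at −0.63 (SE 0.35) and Sgk1, a stress kinase, at −0.52 (SE 0.31). Without EMT 4 the Nfkbiz difference was −0.38, and among numbered arrays alone that of Sgk1 was −0.27. The gene lower at an unadjusted p below 0.05 was Nfkbia, the NF-kB inhibitor, at −0.47 (SE 0.15, limma adjusted p = 0.214), named after its value was seen.

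Of 16 kinases and serum response factor partners upstream, 5 were higher and 0 lower in EMT at an unadjusted p below 0.05, where 8.08% and 6.27% of all genes were higher and lower, and 14 of 16 differences were above 0, with a median of 0.15. Mrtfa, the actin-sensing cofactor of serum response factor, lay at 7.90 to 8.38 in Squamous and 8.33 to 9.27 in EMT tumours, with 5 of 6 EMT tumours above every Squamous one and a difference of 0.58 (SE 0.14, adjusted p = 0.153 with limma). Elk3, a ternary complex factor, differed by 0.96 (SE 0.44) and Map2k1, the ERK kinase MEK1, by 0.33 (SE 0.15). The Elk3 difference was 0.41 with array weights, and that of Map2k1 was 0.19 without EMT 2 and 0.21 among numbered arrays alone. Of 18 genes known as AP-1 targets, 2 were higher and 0 lower at an unadjusted p below 0.05, 11 of 18 differences were above 0 and the median was 0.42, which was 0.24 without EMT 2 and 0.071 with array weights. Timp1, an inhibitor of metalloproteinases, differed by 1.43 (SE 0.67), Hbegf, a ligand of the EGF receptor, by 1.32 (SE 0.65) and Sprr1a, a cornified envelope protein, by −1.78 (SE 1.40), and limma gave adjusted p of 0.352, 0.372 and 0.574. The Sprr1a difference was −0.66 without EMT 4, −0.77 among numbered arrays alone, −1.03 without EMT 6 and −2.82 without EMT 2. That of Hbegf was 0.77 without EMT 2 and 0.83 with array weights, and that of Timp1 was 0.59 with array weights. Sprr1a varied widely, between 4.63 and 13.67 among EMT and between 8.35 and 13.94 among Squamous tumours.

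Of 10 heat shock genes, 2 were higher in EMT at an unadjusted p below 0.05, 8 of 10 differences were above 0 and the median was 0.06, where 8.08% of all genes were higher at that p and 51.8% had a difference above 0. The median was 0.036 without Squamous 8 and 0.10 without Squamous 1, Squamous 4 or EMT 4. Hsph1, a chaperone that serves Hsp70, differed by 0.41 (SE 0.16), Hspa1b, the inducible Hsp70, by −0.40 (SE 0.34) and Dnajb1, its cochaperone, by 0.25 (SE 0.13), and their adjusted p from limma were 0.281, 0.612 and 0.413. The Hspa1b difference was −0.099 without EMT 4, −0.22 among numbered arrays alone and −0.68 without EMT 2. That of Dnajb1 was 0.16 without EMT 2, and that of Hsph1 was 0.24 with array weights.

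**Figure D5:**
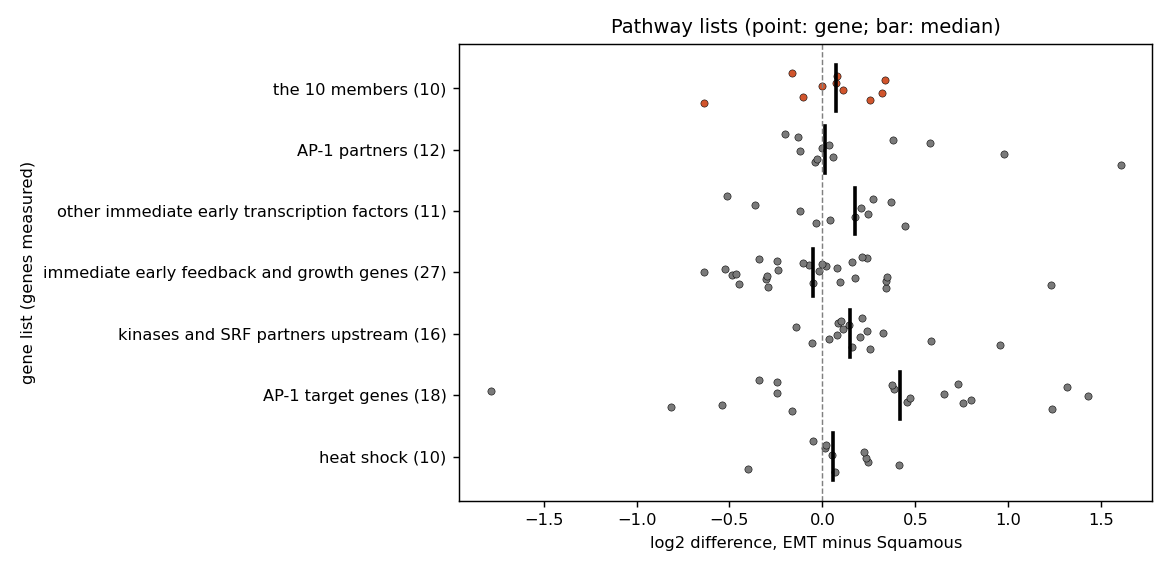
Log2 difference EMT minus Squamous (horizontal axis) of every measured gene of the 10 members (orange) and the 6 lists (grey), one row per list (vertical axis); black bars are medians. The members lie between −0.64 and 0.34 around a median of 0.07, the kinases and partners around 0.15 and the AP-1 targets around 0.42, from −1.78 to 1.43.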

How the data were processed

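Biotin-labelled cRNA from total RNA of 17 tumours was hybridised to Affymetrix arrays, 1 per tumour, per the labels' protocols. The deposited log2 values were used as they are; how they were normalised is not given in the sources used here, and their range shows a log2 scale. Of 22690 probe sets, 64 were controls, 20380 had 1 gene symbol in the supplied probe table, 691 several and 1555 none; 20351 matched the supplied gene table by identifier. Depth does not apply to arrays, and the number of tumours limits precision.

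The EMT and Squamous comparison used linear models (limma 3.58.1, R 4.3.3) whose terms were the histology and the format of the title, and Benjamini-Hochberg adjustment over 12393 genes at 0.05. The labels do not say which tumours came from separate animals, so p-values measure only the spread between these tumours. Named genes were the 10 members, the 8 genes most like their mean, the 3 largest differences and any call in each list, and Myc and Cdh1; Maff, Klf4 and Nfkbia were added after their values were seen. The members and lists were chosen with earlier results of these data known. Correlations, promoter searches and figures used Python 3.11.15, numpy 2.4.6, pandas 2.3.3, scipy 1.17.1 and matplotlib 3.10.9. On simulated data for the EMT and Squamous fit over 12393 genes, limma recovered 44, 45, 48 and 50 of 50 genes changed by 1, 2, 3 and 4 on the log2 scale, with 12 false calls. Simulated noise was independent between genes and the changed genes were added to it, so these counts give no detection rate for the tumours. In the tumours themselves 0 of 12393 genes passed, and the smallest limma adjusted p was 0.0982.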

Additional observations from a re-analysis of the deposited data

Results flagged for a closer look

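Junb in EMT 2, at 10.21, stood apart from the other EMT tumours: it was 0.71 above the next one, a gap of 0.64 of the whole range of the 6 EMT tumours. Of 20 groups examined for such a gap (10 genes in EMT and in Squamous tumours) it was the 1 found, and chance flags about 1 in 20.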

How the results depend on the processing

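The count of 0 members past the threshold held in all 26 alternative fits of EMT against Squamous, the 15 that leave out a tumour included (0 to 0). Without EMT 1, 14 genes passed over all genes, 0 of them members. The number of correlated pairs, 8, was 0 after quantile normalization, after subtraction of array medians, within Squamous tumours and on deviations from the histology means, 4 among numbered arrays and with Spearman's rho, 5 with the mean of probe sets, and 0 to 8 when a tumour was left out.

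Small differences changed sign. Fos was 0.032 and Junb −0.000178 with array weights. Ier2 was 0.00193 without the title format term, 0.074 among numbered arrays, 0.0054 with array medians subtracted and 0.15 with array weights. Ier3 was −0.013 with the Squamous tumours that share a title number averaged. The median of AP-1 partners was −0.074 among numbered arrays and −0.043 for genes above the median level, and that of the feedback genes 0.038 without the title format term. Leaving out a tumour moved Fos between −0.27 and 0.0073, Junb between −0.12 and 0.17, Ier2 between −0.12 and 0.082, Ier3 between −0.13 and 0.37, and the medians of AP-1 partners between −0.074 and 0.10, of feedback genes between −0.17 and 0.0068 and of the 10 members between −0.017 and 0.18. The 0.17 of Junb and the −0.074 of AP-1 partners came from leaving out Squamous 9, which gives the estimates of the numbered arrays alone. Genes above the median level left 8 members. The scalings tried for the Papillary and Microacinar counts and the numbered arrays tried for the relation of Ier3 with the Gapdh difference were chosen after seeing the data. No paired analysis of EMT with Squamous was possible because no title number is shared between these histologies. The tumour numbers used here follow the order of the arrays in the series. Fosb, near the lower limit of the arrays, is limited by signal over background.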
